A study of Mus musculus with 12 samples.

Results

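The 37 genes of the mouse mitochondrial genome were taken as all rows of the deposited tables whose gene name starts with mt-, out of 48526 genes in all. They comprise 13 protein genes, 2 rRNA genes and 22 tRNA genes. RNA came from 12 cortex samples of C57Bl/6 mice, 3 biological replicates in each of 4 groups, and none was treated. The groups were non-transgenic controls of 3 months, TAU58/2 transgenic mice of 3 months, controls of 10 months and TAU58/2 mice of 10 months. TAU58/2 mice carry human tau with the P301S change, a cause of inherited frontotemporal dementia, under a neuronal Thy1 promoter. Ribosomal RNA was depleted and libraries were strand-specific. Values are FPKM, fragments scaled to transcript length and to the size of the library, so genes of different length can be compared by level.

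The mitochondrial genome is a small circle present in many copies per cell. Each strand is transcribed as long RNAs, from which the tRNAs are cut out, and these cuts free the rRNAs and the messages that lie between them. Its protein genes all encode subunits of the respiratory chain and ATP synthase, next to a larger number of subunits encoded in the nucleus. Neurons depend on this chain for their ATP, and its messages are normally among the most abundant RNAs of brain tissue.

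In these tables most of the mitochondrial genome carried no value. Of the 37 genes, 33 were listed at exactly 0 in all 12 libraries, and 4 were above 0 in at least 1 library. Those 4 were the complex I genes mt-Nd1 (8 libraries) and mt-Nd5 (5 libraries), the tryptophan tRNA gene mt-Tw (4 libraries) and the leucine tRNA gene mt-Tl2 (1 library). No library listed more than 2 of the 37 genes above 0, and every library listed at least 1. Genes that every cell uses, such as mt-Co1, are therefore listed at 0 throughout. In a table without counts an exact 0 can be an estimate that failed, so a 0 is reported here only as listed at 0 and not as a level. Whether these estimates failed was not tested.

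**Figure D1:**
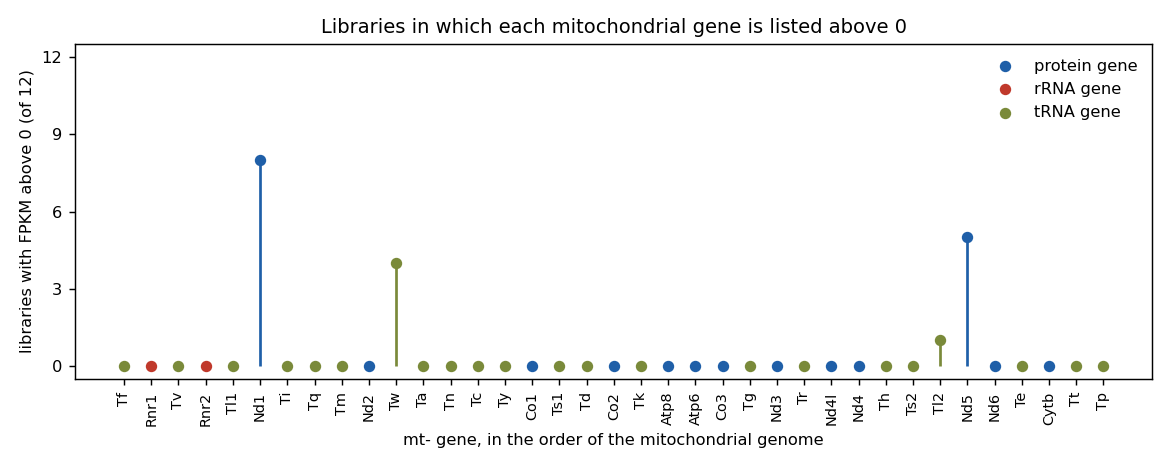
Number of libraries, of 12, in which each of the 37 mitochondrial genes was listed above 0 FPKM (vertical axis), with the genes in genome order (horizontal axis) and the kind of gene by colour. Only mt-Nd1, mt-Tw, mt-Tl2 and mt-Nd5 rise above 0, in 8, 4, 1 and 5 libraries.

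The sequences of the tRNA genes with a value, and the borders of mt-Nd1 and mt-Tw with their neighbours, show how densely these genes are packed. They are taken from the GENCODE M21 transcripts (GRCm38), 5′ to 3′. Capitals mark the anticodon in the tRNA genes, and in the borders the bases that belong to both neighbouring genes.
mt-Tw: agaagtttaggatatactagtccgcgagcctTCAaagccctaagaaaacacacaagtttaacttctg
mt-Tl2: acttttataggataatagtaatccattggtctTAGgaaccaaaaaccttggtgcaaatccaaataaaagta
mt-Nd1 into mt-Ti: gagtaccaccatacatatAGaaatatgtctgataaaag
mt-Nd2 into mt-Tw: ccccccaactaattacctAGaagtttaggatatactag
The mt-Tw gene is 67 bases long and mt-Tl2 is 71 bases long. Each border shares 2 bases between a protein gene and the tRNA gene behind it.

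On the GRCm38 mitochondrial chromosome the 37 genes lie between bases 1 and 15422, 28 on the plus strand and 9 on the minus strand. Of the 36 pairs of neighbours, 9 overlap, 12 touch, 14 are separated by 1 to 5 bases, and 1 is separated by 32 bases. The largest overlap, 43 bases, is between mt-Atp8 and mt-Atp6. The gene mt-Nd1 (ENSMUSG00000064341, 2751 to 3707, plus strand) touches mt-Tl1 before it. The gene mt-Nd5 (ENSMUSG00000064367, 11742 to 13565, plus strand) touches mt-Tl2 (ENSMUSG00000064366, 11671 to 11741) and overlaps mt-Nd6, on the other strand, by 14 bases. The gene mt-Tw (ENSMUSG00000064346) spans 4950 to 5016. Each of the 37 genes lies within 5 bases of a neighbour or overlaps it, the 33 listed at 0 throughout included.

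Among the protein genes, complex I, the NADH dehydrogenase that passes electrons from NADH into the chain, has 7 members (mt-Nd1 to mt-Nd6 and mt-Nd4l). Of these 2 had values and 5 were listed at 0 in all libraries. The single complex III gene, mt-Cytb, which encodes cytochrome b, was listed at 0 in all 12 libraries. So were the 3 genes of cytochrome c oxidase (complex IV), mt-Co1, mt-Co2 and mt-Co3, and both ATP synthase genes, mt-Atp6 and mt-Atp8.

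The subunit gene mt-Nd1 encodes a membrane subunit of complex I. The 3-month controls read 5577, 4352 and 0 FPKM, and the 3-month transgenic libraries 3526, 141 and 156 FPKM. The 10-month controls read 0, 168 and 0 FPKM, and the 10-month transgenic libraries 0, 124 and 214 FPKM. Its 12 values fell in 3 ranges with nothing between them: 4 libraries at 0, 5 libraries from 124 to 214 FPKM, and 3 libraries from 3526 to 5577 FPKM. The lowest value of the upper range was 16.5 times the highest of the middle range. All 3 values of the upper range came from 3-month libraries, 2 controls and 1 transgenic, and in each of them mt-Nd1 was the most abundant gene of the library. In the middle range it ranked between 103 and 133.

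The gene mt-Nd5 encodes another membrane subunit, one of those that pump protons. Its 3-month control libraries read 0, 1924 and 0 FPKM, and the 3-month transgenic libraries 161, 1439 and 0 FPKM. The 10-month controls read 0, 0 and 1535 FPKM, and the 10-month transgenic libraries 1607, 0 and 0 FPKM. Each group thus held at least 1 library above 1000 FPKM and at least 1 at 0, and the groups overlapped in full. In 4 libraries mt-Nd5 ranked first or second of all genes. Its values above 0 ranged over 12.0-fold, and those of mt-Nd1 over 45.1-fold.

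**Figure D2:**
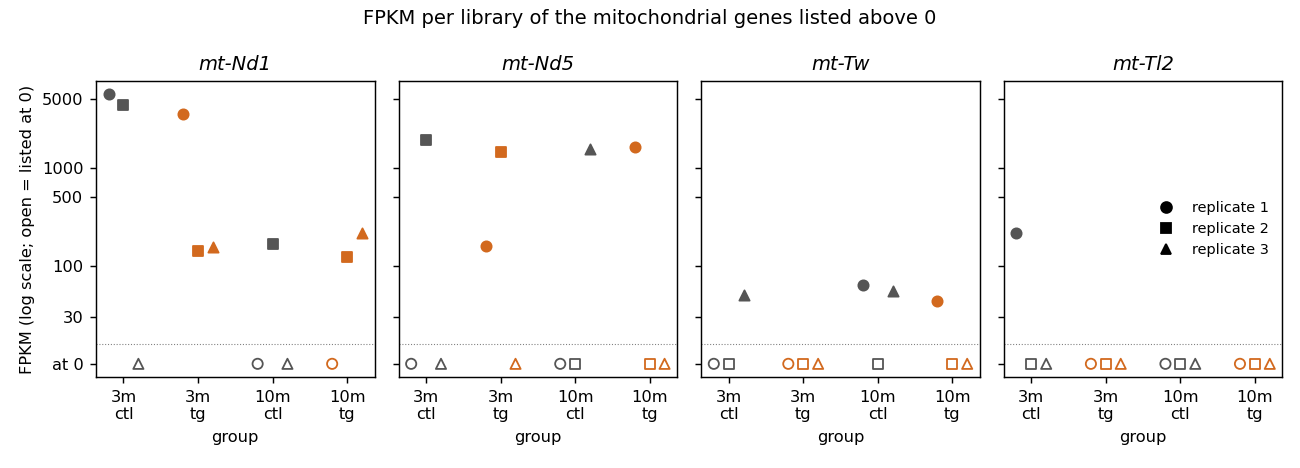
FPKM (vertical axis, log scale) of mt-Nd1, mt-Nd5, mt-Tw and mt-Tl2 in each library, by group (horizontal axis; m, months; ctl, control; tg, transgenic); symbols mark the replicate number, and open symbols below the dotted line are libraries listed at 0. For mt-Nd1, 3 libraries sit between 3526 and 5577, 5 between 124 and 214, and 4 at 0.

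The tRNA gene mt-Tw makes the tRNA that reads tryptophan codons. It was listed at 0, 0 and 50.0 FPKM in 3-month controls and at 0 in the 3 transgenic libraries of that age. At 10 months it was at 63.0, 0 and 55.5 FPKM in controls and at 44.1, 0 and 0 FPKM in transgenic libraries. The 4 libraries with a value for mt-Tw were exactly the 4 in which mt-Nd1 was listed at 0, and no library had a value for both. By contrast, mt-Nd5 was above 0 together with mt-Nd1 in 3 libraries and together with mt-Tw in 2. The gene mt-Tl2, for a tRNA that reads part of the leucine codons, was at 214 FPKM in the 3-month control 1 library and at 0 in the other 11. An FPKM of a gene this short rests on few bases and is an uncertain measure of level. The other 20 tRNA genes were at 0 in all libraries. The same held for mt-Rnr1 and mt-Rnr2, the genes of the small and large rRNA of the mitochondrial ribosome, whose RNA is also a target of the depletion kit.

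Summed over the 13 protein genes, the listed values came to between 0 and 6276 FPKM per library, with a median of 875 FPKM. Leaving out any 1 library moved this median to between 214 and 1535 FPKM. Only mt-Nd1 and mt-Nd5 add to the sum, and zeros enter it as listed. It is therefore not a level of the whole mitochondrial genome. In the 3-month control libraries the sum was 5577, 6276 and 0 FPKM, and in the 3-month transgenic libraries 3687, 1580.0 and 156 FPKM. In the 10-month control libraries it was 0, 168 and 1535 FPKM, and in the 10-month transgenic libraries 1607, 124 and 214 FPKM. As a share of all FPKM listed in a library, this was at most 4.59% (3-month control 2) and was 0 in the 3-month control 3 and 10-month control 1 libraries. The 3-month controls alone spanned the whole range seen over the 12 libraries.

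Per library, 12828 to 13914 genes were above 0, with FPKM totals of 125933 to 158077. Log2 values correlated across genes with a Pearson r of 0.664 to 0.743 within groups and 0.662 to 0.741 between groups, and genes are not independent replicates. Summed neuronal markers, 5 of 6 of which were above 0 in all libraries, ranged from 324 to 648 FPKM. Markers of blood ranged more widely, from 12.6 to 142 FPKM (11.2-fold), as did those of endothelium, from 2.35 to 21.1 FPKM (8.97-fold). The mouse tau gene Mapt, which resembles the transgene, and Thy1, the source of its promoter, did not overlap between genotypes at 3 months (Mapt 43.3 to 47.6 against 6.64 to 12.0 FPKM, Thy1 410 to 441 against 105 to 140 FPKM). Neither passed the threshold of the fit described below (Thy1 limma adjusted p = 0.270). The share of all genes without overlap is not given here. At 10 months both overlapped (Mapt 3.31 to 42.6 against 8.13 to 42.7 FPKM), so the 10-month genotype labels are used as given and were not borne out by these genes. The 3 libraries with mt-Nd1 above 1000 FPKM were set apart by its own values, and all were 3-month libraries. In them the nuclear-retained RNAs Malat1, Meg3 and Neat1 (3 of 3 above 0 in all libraries) summed to 10.1 to 31.9 FPKM. In the other 9 the sum was 22.9 to 59.6 FPKM. Malat1 was at 3.55, 5.44 and 22.0 FPKM in the 3, against 12.7 to 30.2 FPKM in the other 9. Meg3, at 4.31 to 9.47 FPKM, lay within the 4.01 to 37.8 FPKM of the other 9. The pituitary markers Gh, Prl and Pomc summed to 0 to 5.09 FPKM in those 3 libraries, with Prl and Pomc at 0, and to 0 to 13257 FPKM in the other 9, with the highest value in 10-month transgenic 1. Choroid plexus markers summed to 5.24 to 729 FPKM in those 3 and to 10.2 to 439 FPKM in the other 9. The part of these differences in the levels of mt-Nd1 was not tested.

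Between genotypes at 10 months, no mitochondrial gene differed past the threshold. Only the 4 genes with values could enter the fit, limma on log2(FPKM + 0.1) over all 12 libraries, with Benjamini-Hochberg adjustment over 9846 genes and a threshold of 0.05. Of the 4, 0 passed (0 at an unadjusted p under 0.05), against 0.0102% of all genes tested. The log2 difference, transgenic minus control, was 3.54 for mt-Nd1 (SE 4.69, limma adjusted p = 0.973), with 2 of 3 transgenic and 1 of 3 control libraries above 0. It ranged from 1.57 without 10-month transgenic 3 to 7.11 without 10-month control 2. For mt-Nd5 it was 0.02 (SE 5.78, limma adjusted p = 1), with 1 library above 0 in each group. For mt-Tw it was -3.21 (SE 3.32, limma adjusted p = 0.969), with 1 transgenic and 2 control libraries above 0, and ranged from -6.28 without 10-month control 2 to -1.63 without 10-month control 1. The gene mt-Tl2 was listed at 0 in all 6 libraries of this age, so its difference was fixed at 0 and it could not pass.

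The comparison at 3 months gave the same count, 0 of 4 genes past the threshold and 0 at an unadjusted p under 0.05, against 0.0406% of all genes. The log2 difference was 1.67 for mt-Nd1 (SE 4.69, limma adjusted p = 1) and 3.41 for mt-Nd5 (SE 5.78, limma adjusted p = 1). For mt-Tl2 it was -3.69 (SE 2.42, limma adjusted p = 1), which rests on the 3-month control 1 library alone. The difference for mt-Nd5 ranged from 0.58 without 3-month transgenic 2 to 8.15 without 3-month control 2. The sign for mt-Nd1 depended on 1 library: without the 3-month control 3 library, in which it is listed at 0, the difference was -3.53. All 3 transgenic libraries were below the 2 highest controls and above the third.

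In the authors' deposited table, too, the direction for mt-Nd1 at 3 months depends on the measure. There its mean FPKM is 1274 in transgenic and 3309.5 in control libraries, a ratio of 0.385, while the fold change column of the authors' deposited table reads 1.17 (q = 0.995), on the other side of 1. At 10 months the authors' deposited table gives mt-Nd1 a fold change of 2.73 (q = 0.937), where its means have a ratio of 2.02. For mt-Nd5 the authors' deposited tables give fold changes of 2.18 at 10 months (q = 0.969) and 0.664 at 3 months (q = 0.972), where the means have ratios of 1.05 and 0.831. How the fold change column was made is not given in the sources used here, and it is not the ratio of the mean columns. Among genes with a p-value, both means above 0 and 1 of them at least 1 FPKM, the 2 measures in the authors' deposited tables pointed in opposite directions for 1104 of 9171 genes (12.0%) at 10 months and 962 of 9022 (10.7%) at 3 months. The authors' deposited tables give no p-value for the 33 genes listed at 0.

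Whether the genotype difference changed with age was asked with the interaction term, and 0 of 4 genes passed (0 at an unadjusted p under 0.05; 0.0508% of all genes passed). The interaction was 1.88 for mt-Nd1 (SE 6.64, limma adjusted p = 0.993), -3.39 for mt-Nd5 (SE 8.18, limma adjusted p = 0.987) and 3.69 for mt-Tl2 (SE 3.43, limma adjusted p = 0.987). The value for mt-Tl2 rests on the 3-month control 1 library alone and repeats its 3-month difference with the sign changed. The sign for mt-Nd1 turned without the 3-month control 1 library, to -0.81, and also without 3-month control 2 or 10-month transgenic 3. That for mt-Nd5 turned to 1.25 without the 10-month control 3 library.

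With age, mt-Nd1 was above 0 in 5 of 6 libraries at 3 months and in 3 of 6 at 10 months. The log2 difference, 10 months minus 3 months, was -6.82 in controls (SE 4.69, limma adjusted p = 0.994), and in transgenic mice -4.95 (SE 4.69, limma adjusted p = 0.974). In controls it ranged from -12.0 without 3-month control 3 to -4.13 without 3-month control 1, and in transgenic mice from -6.92 without 10-month transgenic 3 to -1.39 without 10-month transgenic 1. For mt-Nd5 it was -0.11 in controls (SE 5.78, limma adjusted p = 1) and -3.50 in transgenic mice (SE 5.78, limma adjusted p = 0.985), the latter ranging from -8.15 without 10-month transgenic 1 to -0.67 without 3-month transgenic 2. For mt-Tl2 it was -3.69 in controls (SE 2.42, limma adjusted p = 0.994), which rests on the 3-month control 1 library alone. For mt-Tw it was 2.93 in transgenic mice (SE 3.32, limma adjusted p = 0.974). The value for mt-Tw rests on 10-month transgenic 1 alone, since mt-Tw was listed at 0 in the other 5 transgenic libraries. None of the 4 passed in either genotype (0 at an unadjusted p under 0.05), against 0.0305% of all genes in controls and 0.0203% in transgenic mice. In transgenic mice mt-Tl2 could not pass, since it was listed at 0 in all their libraries. Without 3-month control 3, mt-Nd1 in controls reached an unadjusted p under 0.05 (limma adjusted p = 0.927). Ages and deposited tables divide the libraries in the same way and cannot be told apart.

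These standard errors show how little the comparisons can resolve. The SD of log2(FPKM + 0.1) within groups was 6.41 for mt-Nd1 and 7.90 for mt-Nd5, against a median of 0.73 over all 9846 genes tested. Of those genes, 99.98% had a smaller SD than mt-Nd1. Every log2 difference above from all libraries includes libraries at 0, so its size is set in part by the value of 0.1 added before the logarithm. For mt-Nd1 at 10 months, it was 2.44 with 1 added and 4.65 with 0.01 added. With a library left out, the -3.53 and -1.39 of mt-Nd1 hold no library at 0. The first is the genotype difference at 3 months without 3-month control 3. The second is the age difference in transgenic mice without 10-month transgenic 1.

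A highest value of at least 100 FPKM was reached by 387 genes in the tables, and 345 of them (89.1%) were above 0 in all 12 libraries. At 0 in 4 or more libraries were 21 of the 387 (5.43%), and these included the 3 mitochondrial genes that reached this level, mt-Nd1, mt-Nd5 and mt-Tl2. Nuclear genes in the same position included Basp1, a membrane protein of growing axons (at 0 in 8 libraries, highest 263 FPKM), Cdk5r2, an activator of the kinase Cdk5 (5 libraries, 234 FPKM), and Ppia, the housekeeping enzyme cyclophilin A (5 libraries, 163 FPKM). Basp1, Cdk5r2 and Ppia were chosen after their values were seen, and Ppia has processed copies in the genome that can share its reads. The 21 also included Lars2, the pseudogene Gm10925 and the pituitary markers Prl and Pomc. Both markers were highest in 10-month transgenic 1, at 1482 and 547 FPKM. A switch between a high level and 0 among replicates was thus not restricted to mitochondrial genes in these tables.

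**Figure D3:**
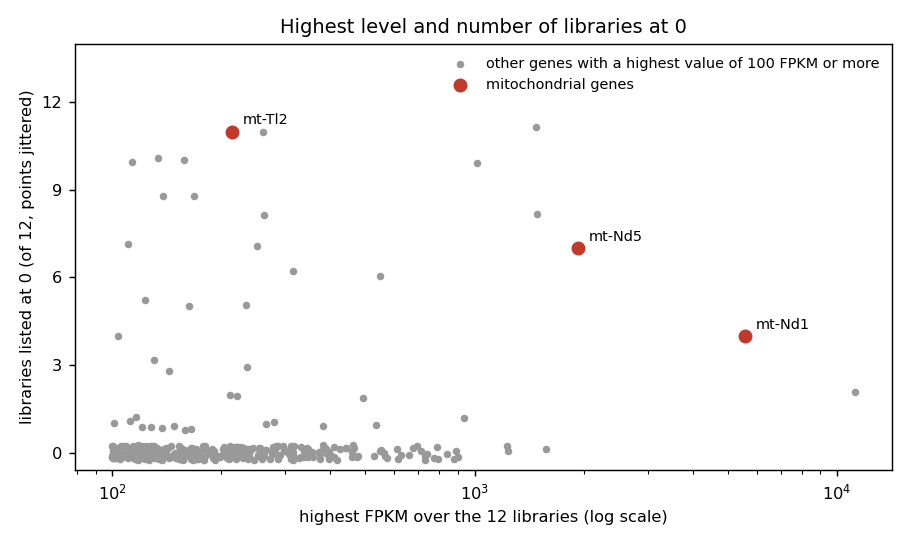
Highest FPKM over the 12 libraries (horizontal axis, log scale) and number of libraries listed at 0 (vertical axis; grey points are jittered) for genes reaching at least 100 FPKM; red points are mitochondrial genes. Most genes lie at 0 on the vertical axis, while mt-Nd1, mt-Nd5 and mt-Tl2 lie at 4, 7 and 11.

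Copies of mitochondrial DNA also lie in nuclear chromosomes, and they share sequence with the members. Genes outside the mitochondrial genome with at least 10 words of 31 bases in common with a mitochondrial gene numbered 16, all but 1 of them annotated as pseudogenes. On chromosome 1, 7 genes in a row (24611535 to 24616197, minus strand, GRCm38) match mt-Nd4, mt-Nd4l, mt-Nd3, mt-Co3, mt-Atp6, mt-Co2 and mt-Co1 with identities of 98.8% to 100%. On chromosome 2, the neighbouring pseudogenes Gm13341, Gm13340 and Gm13339 (22587291 to 22590533, minus strand) match mt-Co2, mt-Co1 and mt-Nd2 with identities of 96.7% to 97.6%. Of the chromosome 1 copies, 5 share all of their words with the mitochondrial gene, Gm28438 differs from mt-Nd3 at 1 base and Gm29216 from mt-Co1 at 6 bases. Reads from identical stretches cannot be assigned by sequence, and the stretches below show an identical and a diverged pair. The first pair is the start of mt-Atp6 and of its chromosome 1 copy Gm10925, which are identical here and over all 678 aligned bases.
mt-Atp6: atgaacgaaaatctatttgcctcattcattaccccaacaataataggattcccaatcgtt
Gm10925: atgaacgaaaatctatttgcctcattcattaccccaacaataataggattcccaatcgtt
The second pair is the stretch of 60 bases of mt-Co2 that differs most from its chromosome 2 copy Gm13341, on the strand of mt-Co2, with the 6 differing bases in capitals.
mt-Co2: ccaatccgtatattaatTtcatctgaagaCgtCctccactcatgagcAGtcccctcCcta
Gm13341: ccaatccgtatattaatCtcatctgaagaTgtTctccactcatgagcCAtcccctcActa

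Of the 7 copies on chromosome 1, 6 were listed at 0 in all libraries, like the mitochondrial genes they match. The exception, Gm10925 (ENSMUSG00000100862, 24613974 to 24614651), was at 567 FPKM in the 3-month control 3 library and at 1014 FPKM in the 3-month transgenic 2 library, and at 0 in the other 10. Its mitochondrial counterpart mt-Atp6, with the same sequence, was listed at 0 in both of those libraries. The 3-month control 3 library was also 1 of the 2 in which no mitochondrial protein gene had a value.

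The chromosome 2 copies had values in nearly all libraries. Gm13341 was at 266, 0 and 9.39 FPKM in 3-month controls, 3.67, 114 and 4.45 FPKM in 3-month transgenic libraries, 2.19, 6.72 and 12.6 FPKM in 10-month controls, and 238, 90.3 and 186 FPKM in 10-month transgenic libraries. At 10 months its log2 difference between genotypes was 4.77 (SE 2.38, limma adjusted p = 0.969), and the test was not passed. Gm13339 was at 137, 2.42 and 98.2 FPKM against 2.95, 6.39 and 0 FPKM at 10 months (log2 difference 4.69, SE 1.82, limma adjusted p = 0.969), so its groups overlapped. Gm13340 was above 0 in 10 libraries, with a highest value of 75.1 FPKM, and differed between genotypes by 1.07 at 10 months (SE 2.56, limma adjusted p = 1). Reads of the mitochondrial genes mt-Co2, mt-Co1 and mt-Nd2 can match these pseudogenes over long stretches, so their values are uncertain.

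Added together, the listed values of the members and the 16 copies came to between 87.9 FPKM (10-month control 1) and 6311 FPKM (3-month control 2) per library. This was 0.0593% to 4.62% of the library's FPKM. Counting the copies thus left the wide range between libraries in place.

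**Figure D4:**
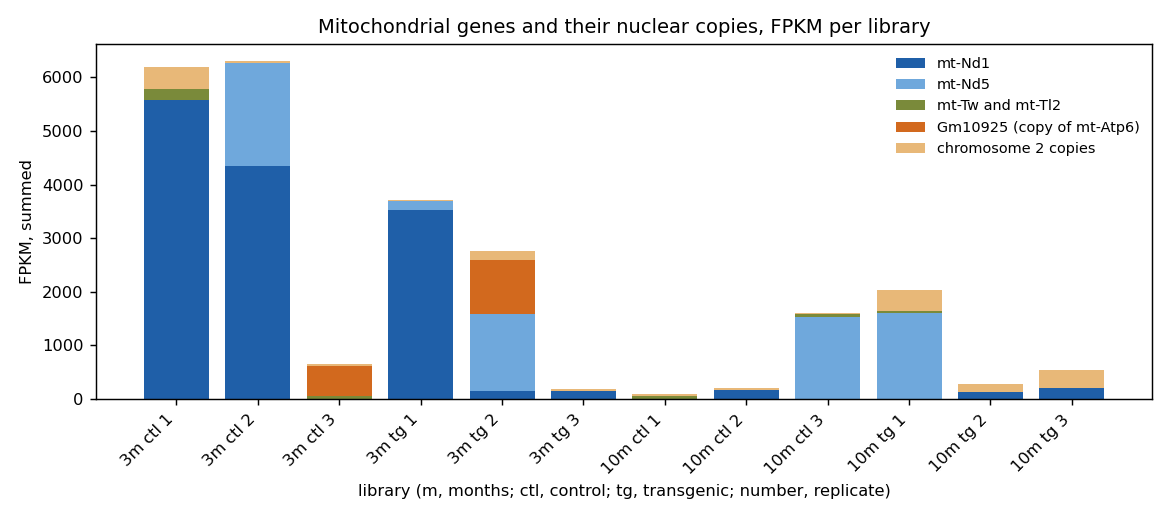
FPKM of mt-Nd1, mt-Nd5, the tRNA genes mt-Tw and mt-Tl2, the mt-Atp6 copy Gm10925 and the chromosome 2 copies, stacked (vertical axis), for each library (horizontal axis; m, months; ctl, control; tg, transgenic; number, replicate). The bars of 3-month control 1 and 2 reach 6196 and 6311 in all, while that of 10-month control 1 reaches 87.9.

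The nuclear subunits of the same complexes were seldom listed at 0. Of 49 nuclear genes for complexes I, III and IV and ATP synthase, 47 were above 0 in all 12 libraries, against 0 of the 13 mitochondrial protein genes. The other 2 were Cox8a, a small subunit of complex IV (median 645 FPKM, 0 in the 10-month control 2 library), and Atp5l, a subunit of the ATP synthase membrane part (median 95.6 FPKM, 0 in the 10-month transgenic 3 library). A value above 0 could still be low. Cox8a was at 2.17 FPKM in 3-month control 2, and Ndufb8 at 1.19 FPKM in 10-month transgenic 3 (median 23.4 FPKM). Atp5d ranged from 1.32 to 94.2 FPKM, the largest ratio (71.5-fold), and Atp5f1 only from 0.0204 to 0.293 FPKM. Summed levels ranged over 1.66-fold between libraries for 15 complex I subunits (489 to 812 FPKM), 1.69-fold for 9 complex III subunits (417 to 704 FPKM), 2.15-fold for 10 complex IV subunits (1276 to 2743 FPKM) and 1.67-fold for 15 ATP synthase subunits (842 to 1407 FPKM).

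**Figure D5:**
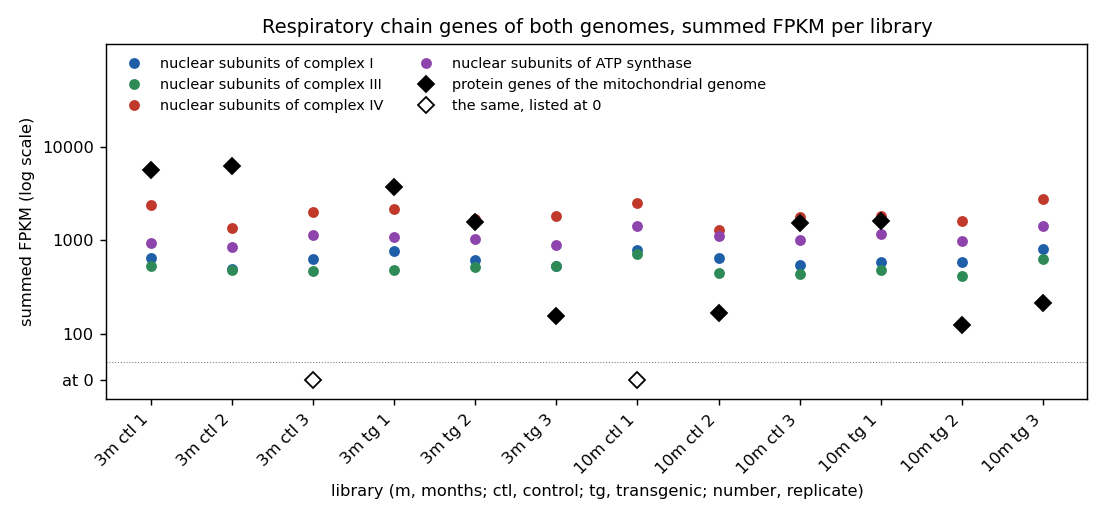
Summed FPKM (vertical axis, log scale) of nuclear subunits of 4 respiratory complexes (coloured circles) and of the 13 mitochondrial protein genes (black diamonds; open where listed at 0) in each library (horizontal axis; m, months; ctl, control; tg, transgenic; number, replicate). The nuclear sums stay between 417 and 2743, while the mitochondrial sum, to which only mt-Nd1 and mt-Nd5 add, runs from 0 to 6276.

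None of these nuclear subunits passed in a genotype comparison, where 0.0102% of all genes passed at 10 months and 0.0406% at 3 months. A count of 0 is thus not particular to them. At 10 months the fit tested 48 of them, with medians of 0.12 for complex I, 0.05 for complex III, -0.0026 for complex IV and 0.07 for ATP synthase on the log2 scale, against 0.01 for all genes. The smallest unadjusted p-values belonged to Ndufs7, which holds an iron-sulfur cluster of complex I (log2 difference 1.61, SE 0.72, limma adjusted p = 0.969), and Uqcr10, a small subunit of complex III (-2.23, SE 1.13, limma adjusted p = 0.969). At 3 months the medians were 0.06, -0.01, -0.05 and -0.04, against 0.02 for all genes. Cox8a differed by 2.63 (SE 3.21, limma adjusted p = 1), and its sign turned to -0.16 without the 3-month control 2 library.

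The nuclear genes that copy, transcribe, process and translate the mitochondrial genome gave no calls either. Of 15 matched genes for transcription and DNA maintenance 11 could be tested, and of 22 for RNA processing and stability 21. Of 16 translation factors 14 could be tested, and of 9 regulators of mitochondrial biogenesis 4. In each of the 5 comparisons 0 passed, against 0.0102% to 0.0508% of all genes, so this count is not particular to these genes. Polrmt, the RNA polymerase of mitochondria, was at 3.21 to 4.64 FPKM in 3-month control and 0.388 to 5.96 FPKM in 3-month transgenic libraries (log2 difference -1.03, SE 0.73, limma adjusted p = 1). Polg, the catalytic subunit of the mitochondrial DNA polymerase, differed by -0.81 at 10 months (SE 0.44, limma adjusted p = 0.969). Mtpap, which adds the poly(A) tails of mitochondrial messages, differed by 2.46 at 10 months (SE 1.08, limma adjusted p = 0.969). It was listed at 0 in 10-month control 1, and the difference was 0.87 to 3.49 over libraries left out. Lars2, the leucyl-tRNA synthetase of mitochondria, was at 3.26, 315 and 75.1 FPKM in 10-month controls against 2.53, 0 and 0 FPKM in transgenic libraries (log2 difference -7.18, SE 1.86, limma adjusted p = 0.969). The test was not passed after adjustment. Lars2 was itself listed at 0 in 6 of the 12 libraries, and in the 3-month libraries it was at 0 to 2.81 FPKM.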

How the data were processed

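RNA of 12 mouse cortex samples was analysed from tables in which the authors give FPKM per gene and library, a separate table per age, with the mean FPKM of each group. The deposited tables also hold a fold change (a ratio), its log2 value, and p-values and q-values whose test is not given in the sources used here. StringTie 1.3.0, R 3.4.2, HISAT2 2.0.4 and SAMtools, with mm10 and GRCm38 as builds, are named per the submitters' processing notes. For their settings and the gene models, nothing is stated in the labels. No counts were used, and the absolute depth is unknown. Among genes under 0.1 FPKM in both a library and 10-month control 1, 7.10% to 10.9% shared a single ratio of values. Read as the worth of 1 fragment in each, it gives the other libraries 1.07 to 1.37 times the depth of 10-month control 1, and no counting interval is given.

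Groups, ages and replicate numbers came from the sample labels. The replicates are called biological, and p-values measure the spread between them. Gene types, coordinates and transcript sequences came from GENCODE M21 (GRCm38), in which all 37 members matched by gene ID. Genes whose mean reached 1 FPKM in any group were fitted as log2(FPKM + 0.1) with limma 3.58.1 in R 4.3.3. The fit used a mean per group and eBayes with trend and robust, and had first been tested on simulated data. Those data were log-normal without values set at 0, and their spread was capped below that of the members. That test therefore does not show how the fit handles the members. P-values were adjusted by Benjamini-Hochberg over all genes tested. Summed levels carry no test. The members and the lists were chosen with earlier results of these data known. Values are printed for all members, and fold changes for those past the threshold or, with none, for the 2 protein genes and the RNA gene with the smallest p; of partner lists, for some of the genes with the smallest p per direction. Alternatives were other pseudocounts, filters, scalings, quantile normalization, a replicate block, plain eBayes, each age alone, and leaving out each library. A median over the protein genes was not computed, since only 2 of 13 could be tested. The values of 1 gene of a partner list are not reported here.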

Additional observations from a re-analysis of the deposited data

How the results depend on the processing

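No member passed the threshold in any of the 5 comparisons under any alternative run, and none of the 1031 alternative values of named genes passed. Of those, 22 changed sign. For mt-Nd5 at 10 months the difference was -0.056 with equal FPKM totals, -0.056 with equal totals outside the mitochondrial genome, -0.012 with size factors and -0.24 with quantile normalization, and leaving out a library gave -4.64 to 4.66. Its age difference in controls was 0.24 with quantile normalization and -4.74 to 4.64 over libraries left out. Leaving out a library also gave -3.53 to 4.35 for mt-Nd1 at 3 months, -0.81 to 7.07 for its interaction, and -8.13 to 1.25 for the interaction of mt-Nd5. Nuclear partners that turned sign did so without 1 library: Mterf2 at 10 months (-0.25 to 1.21), and at 3 months Polrmt (-1.80 to 0.015), Yy1 (-0.27 to 0.078), Uqcr10 (-1.21 to 0.32), Cox8a (-0.16 to 4.10) and Atp5g3 (-0.32 to 0.081). The cause was not tested.

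The count of all genes past the threshold moved more. It was 1 at 10 months, 4 at 3 months, 5 for the interaction, 3 for age in controls and 2 for age in transgenic mice. With no filter beyond a value above 0 in 3 libraries these became 2, 9, 9, 7 and 7, and with a filter at 5 FPKM 0, 2, 1, 0 and 2. The interaction gave 2 with a pseudocount of 0.01, age in transgenic mice gave 6 with plain eBayes, and each age alone gave 0 at 10 months and 14 at 3 months. Leaving out a library gave 0 to 8, 4 to 12, 2 to 11, 3 to 10 and 2 to 13.

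Same-numbered replicates of the 2 genotypes did not deviate together within an age (correlations -0.12 to 0.01, against -0.09 to 0.14 for other pairs). Whether they share more than a number cannot be told from this. With the replicate block, 0 genes passed at 10 months and 1 for the interaction, and the other counts and all members' calls did not change; the limma adjusted p of mt-Nd1 at 10 months was 0.981.

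Leaving out the 3-month control 1 library reduced the members listed above 0 from 4 to 3, and no library changed the count of protein genes, 2. The gene mt-Tl2 could not be tested without that library, with the filter on values above 0 in 3 libraries, or at 10 months with each age fitted alone. These results are limited by the zeros, which are not read as levels, since whether the estimates failed was not tested. If the shared ratio of low values is read as the worth of a fragment, relative depth differed by at most 1.37 times from 10-month control 1. The part of depth in the zeros was not tested.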
